A study of Mus musculus with 10 samples.

Results

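The AP-1 transcription factor genes examined here are *Fos*, *Fosb*, *Fosl1*, *Fosl2*, *Jun*, *Junb*, *Jund*, *Atf3*, *Batf* and *Maff*, 10 of the 24452 named genes in the deposited count table, taken by symbol. All 10 passed the filter on low counts and were among the 15543 genes tested. RNA was sequenced from full-thickness back skin of 5 WT and 5 Zfp36ΔARE C57BL/6 mice, 1 library per mouse, after all of them had received 400 nmol of the mutagen DMBA at 7 weeks of age and then 10 nmol of the phorbol ester TPA per application for 20 weeks. The Zfp36ΔARE mice carry, in every cell, a deletion of an instability motif in the 3′-UTR of *Zfp36*, the gene for the mRNA-destabilizing protein tristetraprolin (TTP), whereas WT littermates carry the intact gene. The skin was treated but held no tumor, so both groups share the DMBA and TPA treatment, and skin without it was not analysed here. The time between the last TPA application and sampling, which matters for transcripts that are induced briefly, is not given in the sources used here. The sex of the mice is not given either. Sex-linked transcripts mark all WT mice and Zfp36ΔARE replicate 1 as female, and Zfp36ΔARE replicates 2 to 5 as male.

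AP-1 is a dimer of basic leucine zipper proteins. Fos proteins pair only with partners such as the Jun proteins, whereas Jun proteins also pair with each other, and ATF3, BATF and MAFF are relatives that join or displace these partners. TPA activates protein kinase C, which signals through MAP kinases to raise both the synthesis and the activity of AP-1, and AP-1 is best known in skin as a nuclear effector of tumor promotion and of keratinocyte differentiation. Many of its mRNAs are short-lived, and several carry AU-rich elements, the class of sequence that TTP binds. The comparison of Zfp36ΔARE with WT skin therefore asks whether AP-1 transcripts differ in chronically promoted skin in which *Zfp36* mRNA is more abundant.

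The AU-rich pentamer ATTTA was counted on the sense strand of 1 annotated 3′-UTR per gene (GENCODE M21 on GRCm38, the same assembly as the mm10 build used for alignment). *Fosl2* held 8 pentamers in 4653 bases, *Fos* 4 in 815 bases, *Jun* 4 in 1233 bases and *Maff* 4 in 1221 bases. *Atf3* held 3, *Junb* 2, and *Fosb*, *Fosl1* and *Jund* 1 each, while *Batf* held 0 in 335 bases. Of the 14293 tested genes with an annotated 3′-UTR, 65.9% held at least 1 pentamer and 25.9% held at least 4. The nonamer TTATTTATT, which contains the pentamer and is the preferred TTP site, occurred in *Fos* (1), *Fosl2* (1) and *Maff* (2), and in 7.13% of those genes. The stretches below are the 30 bases around a nonamer of each of these genes and around the closest pentamers of *Jun*, on the strand of the gene, with each ATTTA in capitals. They are shown because they are of the class of site that TTP is known to bind.
*Fos*, chr12:85477101-85477130, plus strand: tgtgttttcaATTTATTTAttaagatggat
*Fosl2*, chr5:32156865-32156894, plus strand: attgacATTTAttttattATTTAttttaaa
*Maff*, chr15:79358778-79358807, plus strand: ttccacactcttATTTAttgcacgaatcta
*Jun*, chr4:95049207-95049236, minus strand: atcATTTAtaatcataggaaagATTTAgta
These matches describe the reference sequence, and binding of TTP to them was not measured.

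The 10 genes are spread over 8 chromosomes. *Fos* (chr12:85473890-85477273) and *Batf* (chr12:85686669-85709087) lie close to each other on the plus strand of chromosome 12, and *Jund* (chr8:70698949-70700616, plus strand) and *Junb* (chr8:84974484-84978718, minus strand) share chromosome 8. *Fosl2* lies at chr5:32135801-32157842, *Fosl1* at chr19:5447547-5455946 and *Maff* at chr15:79346621-79359076, all on the plus strand. *Fosb* (chr7:19302696-19310051), *Jun* (chr4:95049034-95052222) and *Atf3* (chr1:191170296-191218039) are on the minus strand. *Jun*, *Junb* and *Jund* each consist of 1 exon.

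*Zfp36* itself had 2051, 2496, 1824, 2377 and 2011 normalized counts (counts scaled by edgeR's TMM method to the mean library size) in WT replicates 1 to 5. It had 5781, 5202, 5820.0, 6134 and 4196 in Zfp36ΔARE replicates 1 to 5. It was thus higher in each Zfp36ΔARE library than in each WT library, and the fitted log2 fold change (Zfp36ΔARE over WT) was 1.33 (SE, standard error, 0.12, and adjusted p = 0.00195 by the quasi-likelihood test of edgeR). Among the AP-1 genes, 1 of 10, *Fosl2*, passed at an adjusted p under 0.05, beside 34.3% of all tested genes in either direction. It was higher in Zfp36ΔARE skin, as were 15.3% of all tested genes. Of the 10, 0 were lower by edgeR, where 19.1% of all tested genes were lower. DESeq2 and limma-voom also called 0 lower, beside 21.6% and 18.5% of all tested genes. At an unadjusted p under 0.05 by edgeR, 3 AP-1 genes were higher (*Fosl2*, *Jund* and *Maff*) and 1 was lower (*Batf*). The 34.3% of all tested genes that passed with adjustment also pass this looser cut. The full share at this cut is larger and was not counted, so the looser count is not read as a result. No AP-1 gene passed a fold change of 2, which 8.31% of all tested genes did with an adjusted p under 0.05. The fitted log2 fold changes of the 10 genes ran from -0.66 to 0.53, and 7 of them were above 0. Their median was 0.28, beside 0.0076 over all tested genes. The AP-1 genes that passed were thus no more frequent than among all genes in either direction.

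**Figure D1:**
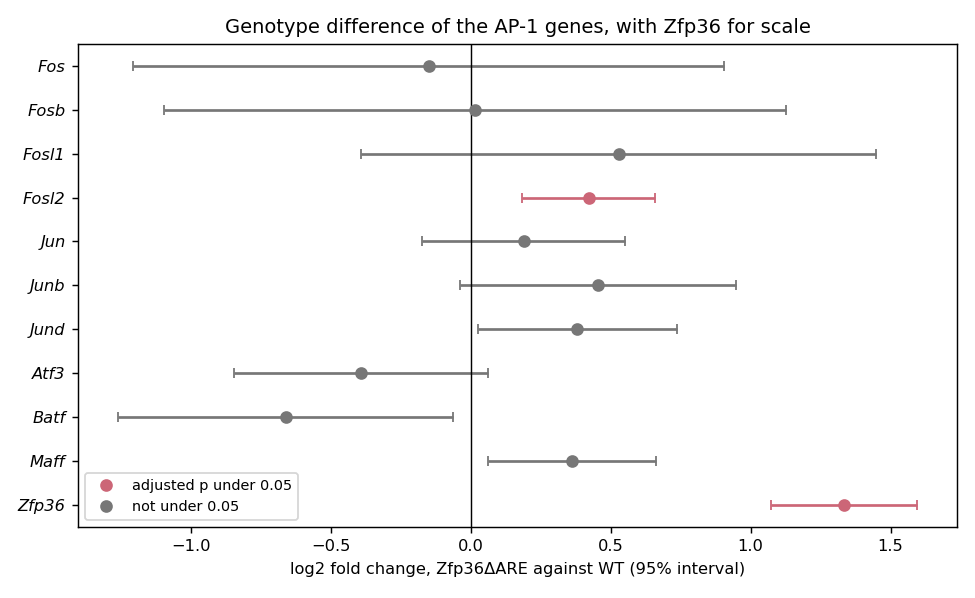
Fitted log2 fold change of each AP-1 gene, Zfp36ΔARE against WT, on the horizontal axis with its 95% interval, not adjusted for the number of genes, and *Zfp36* for scale. *Fosl2* (0.42) is the AP-1 gene with an adjusted p under 0.05, and the intervals of *Fos* and *Fosb* reach about 1 to either side of 0.

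*Fosl2* encodes FRA2, a Fos protein that is present in keratinocytes and accumulates as they differentiate. It had 5334, 7468, 5548, 7246 and 6727 normalized counts in WT replicates 1 to 5. It had 9176, 8827, 8718, 9074 and 7533 in Zfp36ΔARE replicates 1 to 5. The groups did not overlap, which was so for 23.1% of all tested genes, although the lowest Zfp36ΔARE library lay only just above the highest WT library. The means were 6465 ± 975 and 8666 ± 659 (SD, n = 5 mice each), which gave a log2 fold change of 0.42 (SE 0.11, adjusted p = 0.0162 by edgeR), or 1.34-fold with a 95% interval of 1.14 to 1.58. Levels per length, in TPM (a gene's share of all transcripts of a library after division by gene length) computed from the counts and the deposited gene lengths, were 95.5 ± 12.7 in WT and 115 ± 7.98 in Zfp36ΔARE skin (SD, n = 5 each), and on this scale the groups overlapped. The highest WT library was at 110.2 and the lowest Zfp36ΔARE library at 106.1 TPM.

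The call for *Fosl2* held with each library left out in turn, with log2 fold changes from 0.36 to 0.48 and adjusted p from 0.0142 to 0.0385. Other transcripts moved with the groups as well. The summed TPM of 15 hair shaft markers was 155 to 5227 in WT and 8404 to 19538 in Zfp36ΔARE libraries, with 6 of 15 higher, that of 14 skeletal muscle markers was 13196 to 63950 and 6831 to 13843, with 12 of 14 lower, and that of 14 macrophage markers was 1561 to 3265 and 569 to 951, with 13 of 14 lower. None of these markers was at 0 in all libraries. In whole skin, fewer cells of a type and less RNA per cell cannot be told apart. Without WT replicates 1 and 3, the libraries with the fewest hair shaft transcripts, the log2 fold change of *Fosl2* was 0.28 (adjusted p = 0.041 by edgeR). With the hair shaft score or the skeletal muscle score in the fit it was 0.20 (adjusted p = 0.481) and 0.18 (adjusted p = 0.451), settings in which only 2 genes of all 15543 were higher and 11 lower, and 1 higher and 6 lower.

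The groups also differed in transcripts that mark sex. Y-linked counts were 3349 to 4262 in Zfp36ΔARE replicates 2 to 5 and at most 1 in replicate 1 and in WT. *Xist* was at 4 to 15 counts in Zfp36ΔARE replicates 2 to 5 and at 14829 to 28087 in replicate 1 and in WT. Zfp36ΔARE replicates 2 to 5 are thus read as male and the other mice as female. Sex largely followed genotype in every comparison here, so the parts of sex and genotype cannot be fully told apart. Zfp36ΔARE replicate 1 had 9176 normalized counts of *Fosl2*, above each WT library, and without it the log2 fold change was 0.40 (adjusted p = 0.0339 by edgeR). With a term for Y-linked counts in the fit, which leaves the genotype to this mouse, the log2 fold change was 0.51 (adjusted p = 0.196), and 0 of all tested genes passed.

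*Fos* and *Fosb* are the classical immediate-early members of the family, transcribed within minutes of a stimulus. *Fos* had 856, 1149, 406, 1088 and 481 normalized counts in WT replicates 1 to 5. In Zfp36ΔARE replicates 1 to 5 it had 376, 434, 1596, 872 and 323. Each group thus held high and low mice, and both the highest and the lowest of all 10 libraries were Zfp36ΔARE. The log2 fold change was -0.15 (SE 0.48, adjusted p = 0.824 by edgeR), with a 95% interval of the fold from 0.434 to 1.87, which is wide on both sides of 1. *Fosb* had 215, 506, 87.9, 483 and 280 normalized counts in WT and 233, 174, 586, 455 and 149 in Zfp36ΔARE replicates 1 to 5. Its log2 fold change was 0.015 (SE 0.50, adjusted p = 0.984), and it changed sign under several settings. The libraries with the most *Fosb* in each group, WT replicates 2 and 4 and Zfp36ΔARE replicates 3 and 4, were also high in *Fos*.

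The spread of these genes between mice of 1 genotype was large. The coefficient of variation of *Fos* was 42.8% in WT and 74.4% in Zfp36ΔARE skin, larger than that of 90.9% and 98.9% of all tested genes. For *Fosb* it was 56.9% and 60.1%, beside a median over all tested genes of 13.8% in WT and 11.5% in Zfp36ΔARE skin. For *Fosl2* it was 15.1% and 7.61%.

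*Fosl1* encodes FRA1, which rises in stimulated and migrating keratinocytes and in skin tumors. It was the least abundant Fos gene, with 62.6, 121, 34.2, 190 and 67.1 normalized counts in WT and 106, 100.5, 137, 228 and 121 in Zfp36ΔARE replicates 1 to 5. The groups overlapped, although 3 of the 5 WT libraries lay below each Zfp36ΔARE library. The log2 fold change was 0.53 (SE 0.42, adjusted p = 0.334 by edgeR), with a 95% interval from -0.39 to 1.45. With the hair shaft or the skeletal muscle score in the fit it was -0.29 and -0.51, neither of which passed, so no direction is given for it.

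**Figure D2:**
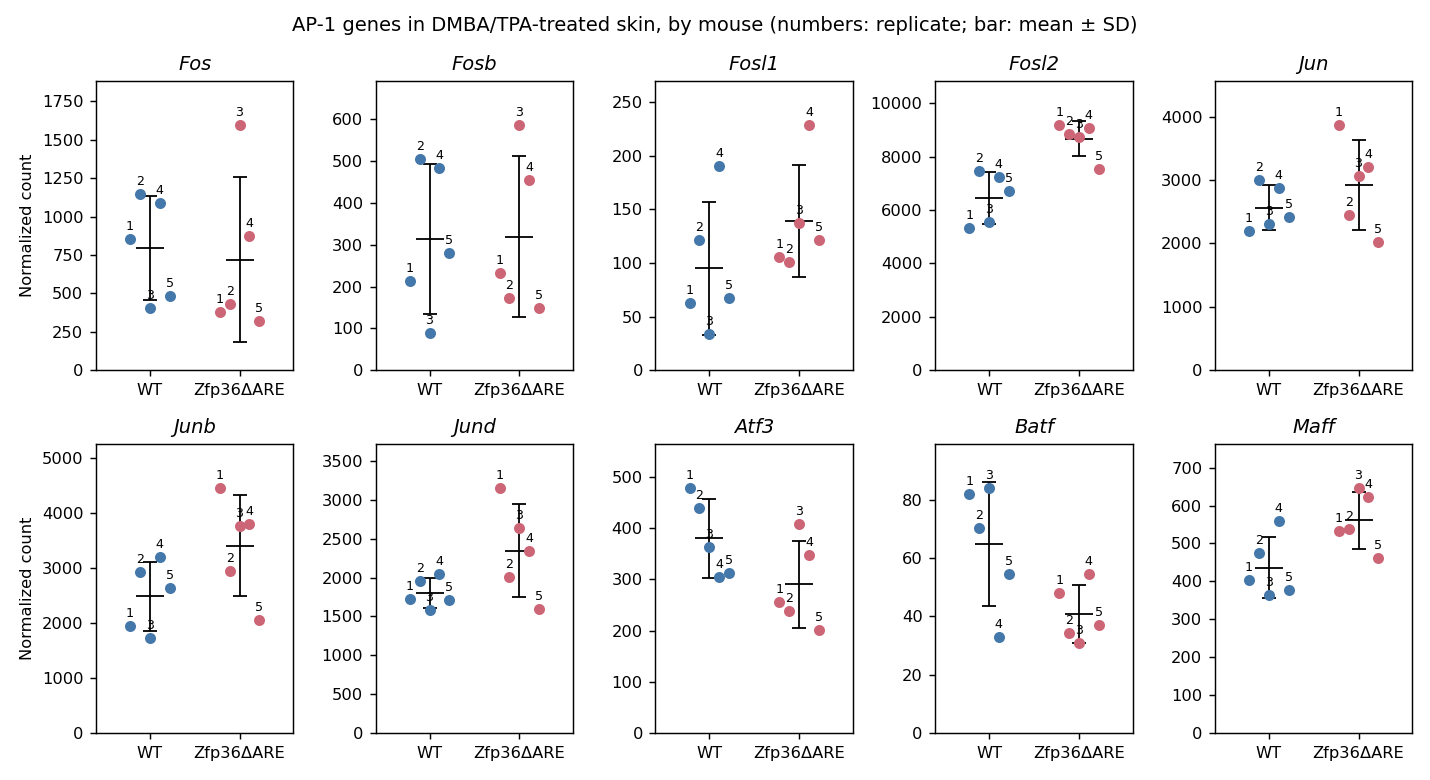
Normalized counts (linear axis from 0) of the 10 AP-1 genes in each mouse, WT in blue and Zfp36ΔARE in red, with the replicate number at each point and bars for the mean ± SD of 5 mice. *Fosl2* is the 1 gene whose groups do not overlap, while *Fos* ranges from 323 to 1596 within the Zfp36ΔARE group alone.

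The Jun genes encode the partners that every Fos protein needs. *Jun* encodes the strongest activator among them, and it had 2202, 3002, 2312, 2873 and 2417 normalized counts in WT and 3867, 2455, 3058, 3199 and 2020 in Zfp36ΔARE replicates 1 to 5. The WT values lay inside the range of the Zfp36ΔARE values, and the log2 fold change was 0.19 (SE 0.16, adjusted p = 0.379 by edgeR). The 95% interval of the fold ran from 0.888 to 1.46. *Junb*, which restrains keratinocyte growth and inflammation in mouse skin, had 1936, 2915, 1724, 3190 and 2638 normalized counts in WT and 4452, 2937, 3760, 3800 and 2060 in Zfp36ΔARE replicates 1 to 5. Of the Zfp36ΔARE libraries, 3 lay above each WT library, and the log2 fold change was 0.46 (SE 0.22, adjusted p = 0.131). *Jund*, the most evenly expressed Jun gene in many tissues, had 1720, 1958, 1588, 2043 and 1707 normalized counts in WT and 3155, 2011, 2633, 2346 and 1590 in Zfp36ΔARE replicates 1 to 5. Again 3 of 5 Zfp36ΔARE libraries exceeded each WT library, and the log2 fold change was 0.38 (SE 0.16, adjusted p = 0.0871).

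For *Junb* and *Jund* the call changed with a single mouse, and the fold change also varied with the other terms in the fit. Zfp36ΔARE replicate 5 was the lowest of its group for all 3 Jun genes, and without it *Junb* passed with a log2 fold change of 0.59 (adjusted p = 0.0445 by edgeR) and *Jund* with 0.49 (adjusted p = 0.023). Without the highest library, Zfp36ΔARE replicate 1, *Junb* was at 0.34 (adjusted p = 0.265) and *Jund* at 0.25 (adjusted p = 0.185). With the hair shaft or the skeletal muscle score in the fit, *Junb* was at 0.033 and 0.062 and *Jund* at 0.22 and 0.26. None of these passed. With the Y-linked term *Junb* was at 0.84 and *Jund* at 0.81. Zfp36ΔARE replicate 1, the Zfp36ΔARE mouse read as female, had the most *Jun*, *Junb*, *Jund* and *Fosl2* of all 10 libraries but was next to the lowest in *Fos*. In the annotation *Junb* overlaps the end of *Prdx2* on the other strand, *Jund* an antisense transcript and *Fosl1* the gene *Ccdc85b*, *Jun* overlaps an antisense transcript too, and since no source used here states the strand setting of the counting, reads in those stretches are uncertain.

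*Atf3*, a stress-induced partner of Jun proteins that often represses, had 479, 440.2, 364, 305 and 313 normalized counts in WT and 256, 238, 407, 348 and 202 in Zfp36ΔARE replicates 1 to 5. Of the Zfp36ΔARE libraries, 3 lay below each WT library, and the log2 fold change was -0.39 (SE 0.21, adjusted p = 0.156 by edgeR). *Batf*, a partner of Jun proteins in lymphocytes and dendritic cells, was the gene with the fewest counts, 28 to 89 per library. It had 82.0, 70.3, 84.2, 32.998 and 54.7 normalized counts in WT and 48.0, 34.4, 30.7, 54.7 and 36.9 in Zfp36ΔARE replicates 1 to 5. WT replicates 1 to 3 lay above each Zfp36ΔARE library and WT replicate 4 among the lowest of all. The log2 fold change was -0.66 (SE 0.27, adjusted p = 0.0796), and without WT replicate 4 it was -0.83 and passed (adjusted p = 0.0203). With the hair shaft or the skeletal muscle score in the fit it was -0.14 and -0.50, neither of which passed. The macrophage markers named above were lower in the same group, as were 8 of 10 mast cell markers, while 1 (*Kit*, 0.29) was higher. Of the 8 T cell markers, 0 passed. Their part in the values of *Batf* was not tested.

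*Maff* encodes a small MAF protein, which lacks a domain for activation and acts through its partners. It had 402, 476, 365, 559 and 378 normalized counts in WT and 534, 539, 647, 624 and 463 in Zfp36ΔARE replicates 1 to 5. WT replicates 2 and 4 lay above the lowest Zfp36ΔARE library and the other 3 WT libraries below it, and the log2 fold change was 0.36 (SE 0.14, adjusted p = 0.059 by edgeR). The call changed with DESeq2 (adjusted p = 0.0317), without WT replicate 4 (0.47, adjusted p = 0.0182) and without Zfp36ΔARE replicate 5 (0.42, adjusted p = 0.0419). With the hair shaft or the skeletal muscle score in the fit it was at 0.14 (adjusted p = 0.774 by edgeR) and 0.16 (adjusted p = 0.67). Without WT replicates 1 and 3 it was at 0.25 (adjusted p = 0.247), and with the Y-linked term at 0.29. The call for *Maff* thus depended on the setting.

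**Figure D3:**
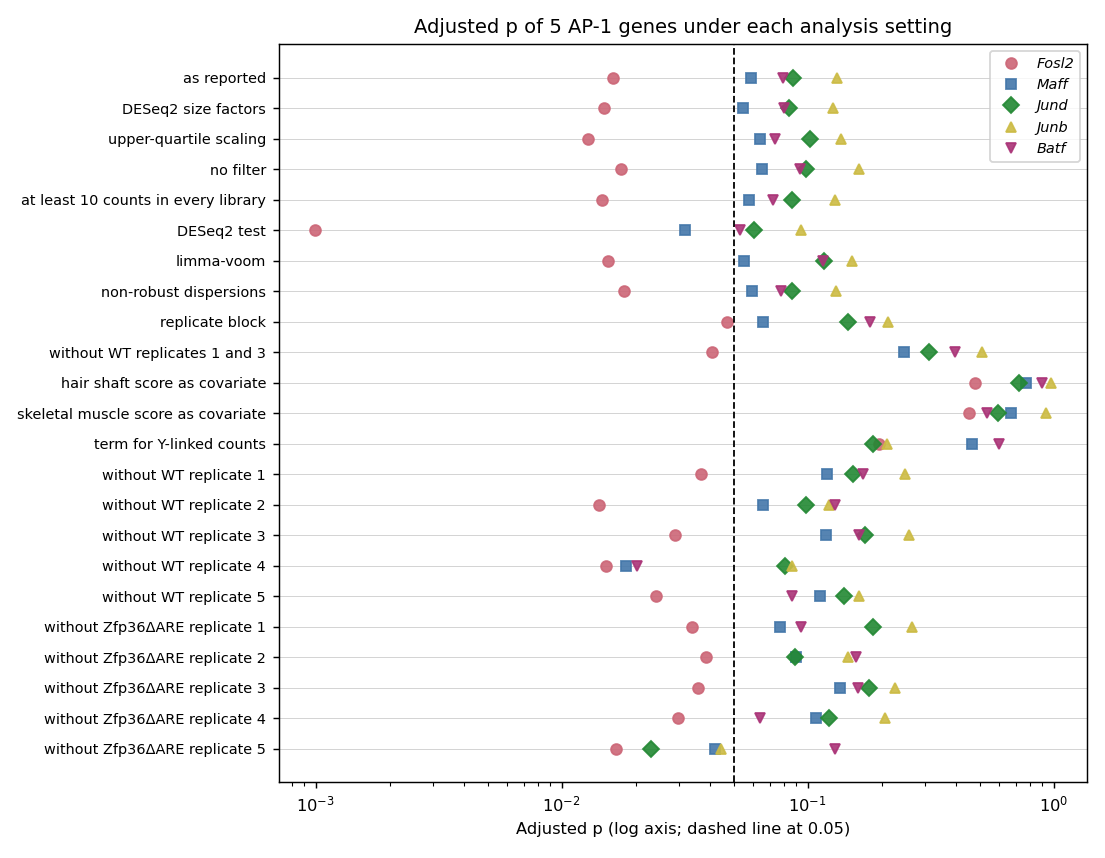
Adjusted p on a log axis for 5 AP-1 genes, 1 row for each analysis setting, with a dashed line at 0.05. *Fosl2* lies left of the line in all but the 3 fits with a hair shaft, skeletal muscle or Y-linked term, and *Maff*, *Jund* and *Junb* all cross it when Zfp36ΔARE replicate 5 is left out.

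Set against the AU-rich sites, the 4 genes with at least 4 pentamers, *Fos*, *Fosl2*, *Jun* and *Maff*, had log2 fold changes of -0.15, 0.42, 0.19 and 0.36, and by edgeR's test 1 of them (*Fosl2*) was higher and 0 were lower, beside 15.3% and 19.1% of all tested genes. The 3 genes with a nonamer, *Fos*, *Fosl2* and *Maff*, are among these. *Batf*, without a pentamer, was at -0.66 and did not pass. The share called among all tested genes with at least 4 pentamers or a nonamer was not counted. These values are therefore not compared with those of other AU-rich genes.

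Per length, 4 genes made up most of the AP-1 transcripts in both groups. In WT skin *Junb* was at 117 ± 27.4 TPM, *Fosl2* at 95.5 ± 12.7, *Jun* at 69.7 ± 8.59 and *Jund* at 54.3 ± 5.04 (SD, n = 5 each). *Fos* followed at 32.96 ± 13.9, *Atf3* at 16.8 ± 3.79 and *Maff* at 14.5 ± 2.48. *Fosb* at 7.18 ± 4.002, *Batf* at 6.26 ± 2.16 and *Fosl1* at 4.80 ± 3.03 were the lowest. *Junb* and *Fosl2* lay within their spread of each other, as did *Atf3* and *Maff* and the lowest 3 genes among themselves. *Zfp36* was at 106 ± 12.7 TPM, as abundant as the leading AP-1 genes. In Zfp36ΔARE skin *Junb* was at 143 ± 37.4, *Fosl2* at 115 ± 7.98, *Jun* at 71.1 ± 17.2 and *Jund* at 63.2 ± 15.8 TPM, the same order. The place of *Jund* depends on its gene model, since the deposited length is 2878 bases and its longest annotated protein-coding transcript is 1668 bases. With the longest transcript of each gene, the *Jund* share of the summed level of the 10 genes in WT was 20.8% in place of 13.1%. *Fosl2* then held 19.0% in WT, below *Jund*. In Zfp36ΔARE skin *Jund* held 21.5% and *Fosl2* 21.0%.

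The 3 Jun genes held 57.5% ± 1.90 of the summed level in WT and 59.4% ± 4.85 in Zfp36ΔARE skin (SD, n = 5 each), and the 4 Fos genes 33.3% ± 1.82 and 33.7% ± 4.07. *Atf3*, *Batf* and *Maff* together held 9.17% ± 1.96 in WT and 6.91% ± 0.807 in Zfp36ΔARE skin, and the groups overlapped. Within the Fos genes, *Fosl2* alone held 23.0% ± 1.69 and 25.4% ± 4.08 of the summed level of all 10. *Atf3* held 4.11% ± 1.19 in WT and 2.45% ± 0.427 in Zfp36ΔARE skin, and *Batf* 1.58% ± 0.719 and 0.775% ± 0.190, with overlap between the groups in both genes. These shares were not tested. The library that stood out was Zfp36ΔARE replicate 1, with 67.7% in the Jun genes, against 55.2% to 60.0% in the other 9 libraries.

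**Figure D4:**
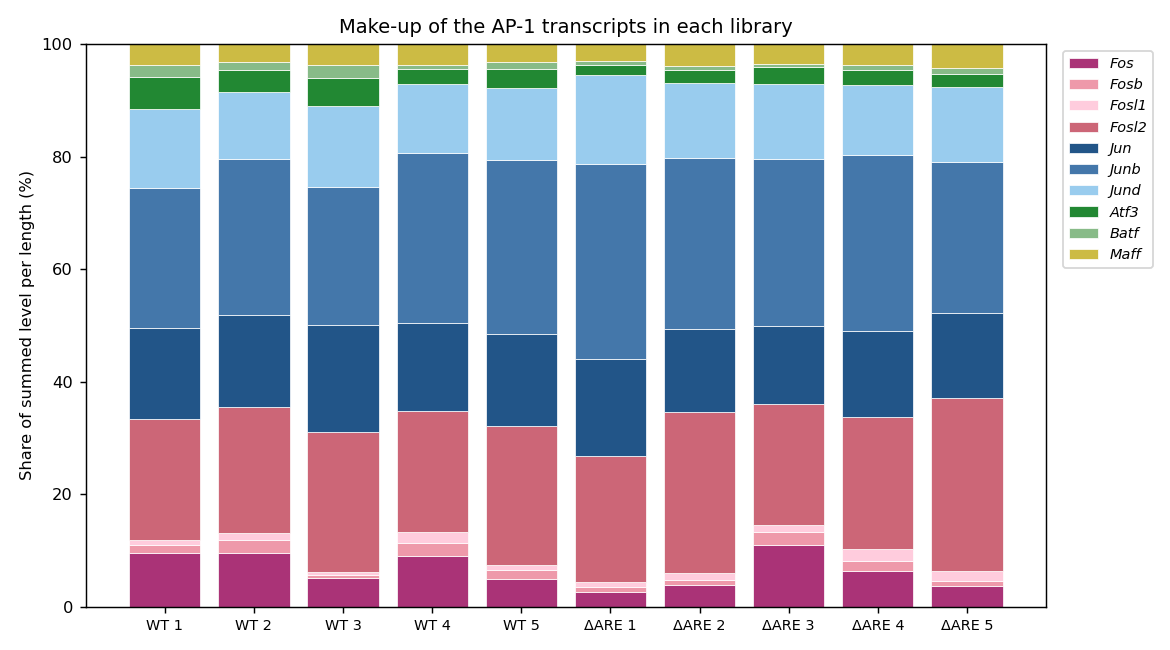
Share of each AP-1 gene in the summed level per length (percent of all 10 genes) in each library, WT on the left and Zfp36ΔARE on the right. By the deposited lengths used here, *Junb* and *Fosl2* are the largest parts in both groups. The *Fos* share varies from 2.57% to 11.1% between mice.

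The low values of 2 libraries ran through the family. Zfp36ΔARE replicate 5 was the lowest of its group for 8 of 10 AP-1 genes, whereas it was the lowest for 24.6% of all tested genes. WT replicate 3 was the lowest of its group for 6 of 10, beside 32.1% of all tested genes. Both were also the lowest for most other immediate-early genes, replicate 5 for 15 and replicate 3 for 16 of 25. These are the library of least depth in each group, with 19595035 and 21638400 counts, where the deepest library had 36419573, and WT replicate 3 also had the fewest hair shaft and the most skeletal muscle transcripts. The part of depth or tissue in these low values was not tested.

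Of 26 other immediate-early genes, 25 were tested, of which 3 were higher and 3 lower in Zfp36ΔARE skin, beside 15.3% and 19.1% of all genes. The 3 higher were *Egr3* (log2 fold change 0.50), *Ier5* (0.41) and *Gadd45b* (0.40), with adjusted p from 0.00996 to 0.0255 by edgeR. The 3 lower were *Dusp1* (-0.75), the MAP kinase phosphatase that restrains p38 and JNK, the orphan nuclear receptor *Nr4a1* (-0.84) and *Klf2* (-0.83), with adjusted p from 0.0138 to 0.0256. *Klf4*, *Sgk1* and *Egr1*, the most abundant genes of the list that did not pass, had log2 fold changes of 0.046, -0.16 and 0.25. Transcripts of the immediate-early class thus lay on both sides of 0, with a median of 0.046.

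Among 11 tested relatives of the family in the basic leucine zipper class, 2 were higher and 2 lower, beside 15.3% and 19.1% of all tested genes. *Maf* rose by 0.32 and *Mafg*, a small MAF like *Maff*, by 0.17 on the log2 scale (adjusted p = 0.0232 and 0.0351 by edgeR). *Jdp2*, a repressor that pairs with Jun proteins, was at -0.44 (adjusted p = 0.0219), and its groups did not overlap. *Batf3*, needed by a class of dendritic cells, was at -1.10 (adjusted p = 0.0413), with 44.7 ± 17.9 normalized counts in WT and 20.8 ± 8.25 in Zfp36ΔARE skin (SD, n = 5 each). *Atf7* and *Atf2* did not pass, with log2 fold changes of -0.16 and 0.047.

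Upstream, 6 of 29 tested MAP kinase and SRF pathway genes were higher and 3 lower, again beside 15.3% and 19.1% of all tested genes. The higher ones included *Map2k3* (0.40), a kinase of p38, *Rps6ka3* (0.36), *Map3k7* (0.19), *Braf* (0.76) and *Map3k5* (0.72), and the lower ones *Mapk9* (-0.34), which encodes JNK2. Their adjusted p ran from 0.00949 to 0.0467 by edgeR. *Mapk3* was at 0.037 and *Mapk13* at 0.31, neither of which passed. The median of the list was 0.037.

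Of 28 tested genes that textbooks give as AP-1 targets, 3 were higher and 5 lower, where 15.3% and 19.1% of all tested genes were. The 3 higher, *Ivl* (0.58), *Tgm1* (0.51) and *Odc1* (0.80), encode involucrin and transglutaminase 1 of the cornified envelope and ornithine decarboxylase, the enzyme of polyamine synthesis that TPA induces in epidermis. Their adjusted p ran from 0.0197 to 0.0407 by edgeR. Lower were, among others, the protease *Mmp9* (-1.65), the urokinase receptor *Plaur* (-1.17) and the chemokine *Ccl2* (-0.66), with adjusted p from 0.0061 to 0.037. *Sprr1a*, *Krt6a* and *Lor*, the most abundant that did not pass, were at 0.75, 0.036 and -0.35. The higher *Ivl* and *Tgm1* are products of differentiating keratinocytes, of which 0 of 9 markers were higher and 2 lower, while 0 of 8 basal keratinocyte markers were higher and 3 lower. Of the hair follicle markers, 6 of 15 of the hair shaft and 1 of 9 of the inner root sheath were higher and 0 lower. Their median log2 fold changes were 2.17 and 1.36. The lower genes named here are also products of myeloid cells, and 13 of 14 macrophage markers were lower. The part of cell content in these values was not tested. The genes of this list therefore moved in both directions, with a median of -0.044.

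**Figure D5:**
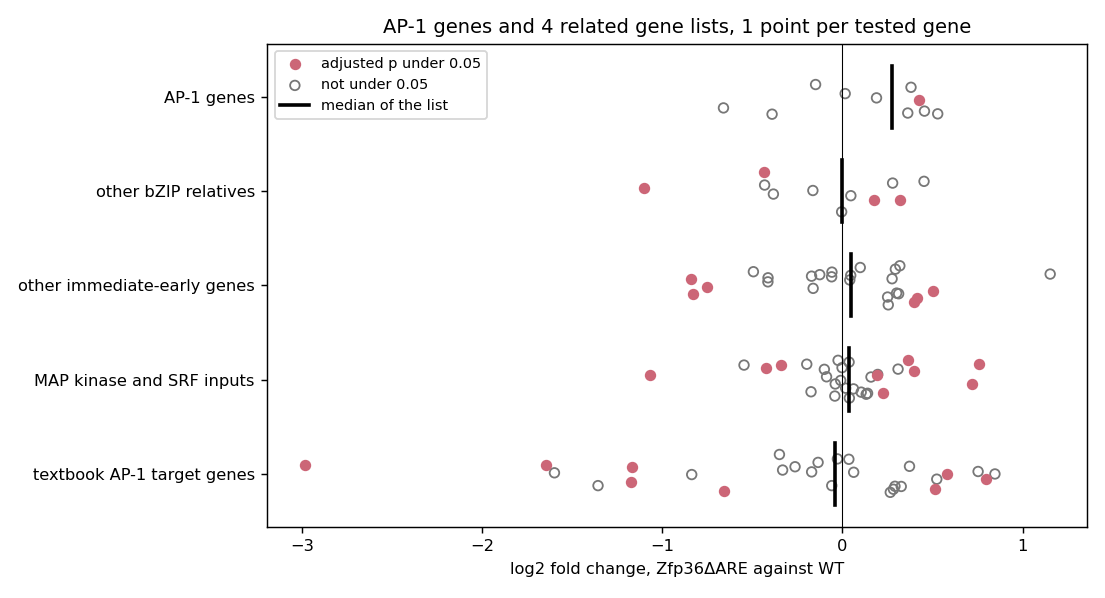
Log2 fold change, Zfp36ΔARE against WT, of each tested gene of the AP-1 family and of 4 related lists, filled where the adjusted p was under 0.05, with a bar at the median of each list. The AP-1 genes hold 1 filled point, and the medians of the related lists lie within 0.05 of 0.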

How the data were processed

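Full-thickness treated skin of 5 WT and 5 Zfp36ΔARE mice was sequenced. Per the methods and labels, reads of low quality were discarded, and the authors aligned read pairs to mm10 with STAR 2.5.2b and counted fragments per gene with featureCounts (Subread 1.5.0-p1), and they deposited raw counts with gene lengths. The strand setting, the treatment of fragments that match several genes and the annotation release are not given in the sources used here. Depth was 19595035 to 36419573 counts per library. The 2 rows without a gene name (7.38e-05% of counts) were left out. No pair of libraries agreed within sampling noise.

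Counts were scaled by TMM, filtered with filterByExpr and tested, Zfp36ΔARE against WT, with edgeR 4.0.16 (R 4.3.3) by the robust quasi-likelihood test, with Benjamini-Hochberg adjustment over 15543 genes. The study's methods name DESeq2, used here as an alternative (1.42.0), beside limma-voom (limma 3.58.1). Standard errors are the fold change over the root of the F statistic. Scores are means of log2(CPM + 1). The script was tested on simulated data in which 198 of 15450 tested genes were changed. False calls were 2.99% of the calls by edgeR, 23.5% by DESeq2 and 2.45% by limma-voom. Of the changed genes 81.8%, 88.9% and 80.3% were recovered. In the simulation DESeq2 thus made more false calls than edgeR or limma-voom. Far fewer genes were changed there than the 34.3% called by edgeR in the data, so these shares may not carry over. How far they bear on calls made by DESeq2 alone was not tested. P-values set the difference between the groups against the spread between mice within a group. The reported fit takes no account of sex or tissue content.

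The AP-1 genes, the related lists, the markers and the alternatives were chosen with earlier results of these data known. Genes named are the 10 AP-1 genes, *Zfp36*, and for each related list up to 6 genes that passed and 3 that did not, those with the most counts. *Flg*, *Trac* and *Trdc* were not matched in the table. Some genes that this rule names are not reported here.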

Additional observations from a re-analysis of the deposited data

Results flagged for a closer look

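Among 22 groups of 5 libraries (the 10 AP-1 genes and *Zfp36* in each genotype), 2 held a library set apart from the rest by more than Dixon's critical value of 0.71, where chance gives about 1.1. *Fosl2* in Zfp36ΔARE replicate 5 (7533 normalized counts against 8718 to 9176) lay below the other 4 by 0.721 of the group's range. *Fosl1* in Zfp36ΔARE replicate 4 (228 against 100.5 to 137) lay above the other 4 by 0.712 of the range.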

How the results depend on the processing

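Over all AP-1 genes and alternatives, 193 fold changes kept the direction and the side of the threshold, 6 newly passed, 3 no longer passed and 18 changed sign, all 18 in genes that did not pass. *Fosl2* did not pass with the hair shaft score (0.20), the skeletal muscle score (0.18) or a Y-linked term (0.51). *Fos* ran from -0.68 to 0.032 with 1 library left out, and was at -0.90, -0.37 and -1.08 with the hair shaft, muscle and Y-linked terms. *Fosb* was at -0.0078 with upper-quartile scaling, -0.045 with limma-voom, -0.41 without WT replicates 1 and 3, -1.14, -0.66 and -0.44 with the hair shaft, muscle and Y-linked terms, and from -0.33 to 0.26 with 1 library left out. With the hair shaft and muscle terms *Fosl1* was at -0.29 and -0.51, and *Jun* at -0.025 with muscle.

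AP-1 genes called higher (1 in the reported fit) were 2 with DESeq2, where 19.7% of all tested genes were higher. They were 0 with the hair shaft or the skeletal muscle score, and 1 to 4 with 1 library left out. The 4 were found without Zfp36ΔARE replicate 5, where 12.6% of all tested genes were higher. Those lower (0) were 0 to 1. In the related lists every count was 0 with the hair shaft or the skeletal muscle score. Of all tested genes, 0.0129% and 0.00643% were higher with these scores, and 0.0708% and 0.0386% lower. With DESeq2, 6 of 25 immediate-early genes were higher, beside 19.7% of all tested genes. With upper-quartile scaling 1 relative was higher, beside 12.6% of all tested genes. With at least 10 counts in every library or limma-voom 1 relative was lower, beside 19.9% and 18.5%. With limma-voom 9 of 28 targets were lower, beside 18.5% of all tested genes. Without WT replicates 1 and 3, 0 relatives were higher and 0 lower, 0 immediate-early genes and 1 kinase pathway gene lower, and 1 target higher and 2 lower. Of all tested genes 6.87% were then higher and 9.06% lower. With 1 library left out the counts higher and lower were 0 to 3 and 0 to 2 for relatives, 2 to 5 and 2 to 3 for immediate-early genes, 4 to 6 and 1 to 3 for kinase pathway genes, and 1 to 3 and 3 to 8 for targets. Of all tested genes 8.08% to 15.1% were then higher and 12.9% to 19.1% lower.

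Same-numbered WT and Zfp36ΔARE libraries did not deviate together (r from -0.192 to 0.0851, 0 of 5 best with their own number). With the replicate block, *Fosb* was at -0.028 and *Fosl2* passed (0.43, adjusted p = 0.047 from edgeR). Of all tested genes 5.72% (889) were then higher and 11.9% (1851) lower, against 15.3% (2373) and 19.1% (2962). With the block 0 relatives were higher and 1 lower, 1 immediate-early gene higher, 3 kinase pathway genes higher and 1 lower, and 1 target higher and 3 lower. By the longest transcript in place of the deposited length, 7 of 20 shares moved by more than 1 SD. Counts per library were 245 to 1453 for *Fos*, 72 to 627 for *Fosb*, 28 to 196 for *Fosl1* and 28 to 89 for *Batf*.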

Other observations

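Ratios within a library do not depend on its scaling. Per length, *Junb* stood to *Jun* at 1.29 to 1.92 in the WT and at 1.77 to 2.13 in the Zfp36ΔARE libraries, where 4 of 5 lay above each WT library. *Fos* stood to *Jun* at 0.267 to 0.591 in WT and at 0.148 to 0.794 in Zfp36ΔARE skin. *Fosb* stood to *Fos* at 0.120 to 0.322 in WT and at 0.204 to 0.344 in Zfp36ΔARE libraries. In Zfp36ΔARE libraries this range was narrower in fold than that of either gene alone. In WT it was nearly as wide as that of *Fos*. These ratios were chosen after the values were seen and were not tested.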
